A study of Mus musculus with 4 samples.

Results

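The region examined holds S100a1, S100a13, S100a14 and S100a16 with the enhancers E2 and E3, near one end of a 5.3 Mb stretch of mouse chromosome 3 around the epidermal differentiation complex, the cluster of genes used in the last steps of keratinocyte maturation. Its members are the HindIII fragments whose midpoint lies in a window around these genes, from FOR_113 to REV_143 (chr3:90299936-90368860, mm9), and the contacts that have at least 1 such fragment. This gave 20 of the 712 fragments listed in any library, 10 with a forward and 10 with a reverse probe, in a window that also covers Chtop, a gene for an mRNA export factor. Chromosome conformation capture carbon copy (5C) had been applied to 2 libraries of epidermal keratinocytes and 2 of thymocytes from newborn C57BL/6 mice. The keratinocytes were taken 15 hours after plating at 32 °C in low-calcium medium, which keeps them from differentiating, and the thymocytes were the whole T cell population of the thymus after lysis of red blood cells. No mutant allele was named for either group. The keratinocyte medium also held hydrocortisone, insulin, EGF, cholera toxin and T3. The thymocytes were put in another medium with serum, so medium and cell type cannot be told apart. The files hold contacts and no gene expression, so the labelled cell types could not be checked against marker genes.

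S100 proteins are small calcium-binding proteins with EF-hand motifs, and most of their genes lie in a cluster that flanks the genes of the cornified envelope, the protein shell that replaces the plasma membrane of the outermost skin cells. S100a1 is best known for calcium handling in heart and muscle, S100a13 for the export of growth factors that lack a signal peptide, and S100a14 and S100a16 are found mainly in epithelia. An enhancer can lie far from the promoter it acts on, and contact of the DNA between them is one way in which the distance may be bridged. E2 and E3 were defined by the study from histone marks in basal keratinocytes, so they are keratinocyte enhancers by choice and no such set was defined in thymocytes. E2 lies over S100a14 and E3 over S100a16. In 5C, chromatin is fixed, cut and religated, and a forward and a reverse probe are joined where they meet at a religated HindIII site, so that the joined product counts the ligation of 2 fragments.

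The window is read through short probes, and those on which the results turn are given here (mm9, 5′ to 3′, with the bases of the cut HindIII site in capitals). REV_132 lies in an exon of S100a14 (chr3:90332041-90332070, minus strand) and its fragment holds the start of that gene and part of E2. REV_126 (chr3:90322831-90322860, minus strand) and FOR_127 (chr3:90323024-90323053, plus strand) lie in an intron of S100a13, and REV_128 (chr3:90328391-90328420, minus strand) in an exon of it. REV_134 (chr3:90336365-90336394, minus strand) lies between genes, beyond S100a14.
REV_132: CTTccaaactccagtttcgagtcattacag
REV_126: CTTgagtgtgtgagcctattgtatctggct
FOR_127: gttcctaggagtgccatcaagcacagaAAG
REV_128: CTTtacttcttccggatccccagggccttc
REV_134: CTTcccacgatagtcataactgcaagttcc

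The partners met most often by called contacts lie 1 short step further along the chromosome, among the other S100 genes. FOR_154 (chr3:90385869-90385898) lies between genes 18239 bp from the start of S100a3, FOR_159 (chr3:90412989-90413018) lies in an intron of S100a5 on a fragment that also holds the start of S100a4 and part of E6, and FOR_180 (chr3:90484362-90484391) lies between genes 10400 bp from the start of S100a8. FOR_1412 (chr3:94144528-94144557) lies 1464 bp from the start of Them5, a thioesterase gene at the far end of the locus. All are on the plus strand.
FOR_154: aggtagtgctgcttcaggaaattaagaAAG
FOR_159: gaatgtgttttaagttttgcgtcccacAAG
FOR_180: ggctttggactagagactcttacaaacAAG
FOR_1412: cctgccagggagtctctcacatcactgAAG

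Each value in the files is the frequency of 1 such product. The product of FOR_154 and REV_132 is shown since it was called in both cell types, that of FOR_1412 and REV_132 since it was called in keratinocytes and listed in neither thymocyte library, and those of FOR_14 and FOR_127 since they were called in thymocytes. Capitals mark the restored HindIII site. FOR_14 lies in an intron of Nup210l and REV_896 on a fragment that holds the start of Lce1a2.
FOR_154 with REV_132: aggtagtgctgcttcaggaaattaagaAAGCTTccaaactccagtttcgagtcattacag
FOR_1412 with REV_132: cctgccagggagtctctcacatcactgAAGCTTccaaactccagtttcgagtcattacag
FOR_14 with REV_134: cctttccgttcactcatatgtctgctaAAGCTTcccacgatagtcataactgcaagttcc
FOR_127 with REV_896: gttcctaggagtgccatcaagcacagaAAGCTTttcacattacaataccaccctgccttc

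The libraries listed unequal numbers of window contacts. The keratinocyte libraries had 5684 and 3951 and the thymocyte libraries 2621 and 3639, and the share of possible pairs ran from 38.3% to 84.2%. A contact without a listed value is not a contact at 0. Comparisons between the cell types therefore rest on the 1545 window contacts listed in all 4 libraries, of 23395 in the whole locus. Across these 1545 contacts the Z score, the excess of the observed over the expected frequency in standard deviations at that distance, correlated at r = 0.279 between the keratinocyte libraries and at 0.200 between the thymocyte libraries. It correlated at 0.362 between keratinocyte library 2 and thymocyte library 1, so these 2 libraries were more alike in Z score than either was like its own replicate. The log2 frequency, which still holds the fall with distance, gave 0.808 and 0.777 within cell types and 0.663 to 0.776 between them. The study calls the libraries biological replicates, and which animals they came from is not given. Contacts share fragments and are no replicates, so cell types were compared over library means, and with 2 libraries a side the two-sided exact permutation test cannot give a p under 0.333.

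Over all its contacts the window's mean did not differ between the cell types beyond the spread of the libraries. The mean Z score was 0.637 and 0.791 in keratinocytes and 0.646 and 0.890 in thymocytes. The keratinocyte and thymocyte ranges overlapped, and the difference of -0.05 had a p of 0.667 in the exact permutation test. On the scale of log2 observed over expected frequency the means were 0.02 and 0.14 in keratinocytes and 0.06 and 0.13 in thymocytes. The median did not overlap, at 0.271 and 0.223 in keratinocytes and 0.152 and 0.0571 in thymocytes, a difference of 0.14 (exact permutation p = 0.333). Over all contacts of the locus the medians were 0.189 and 0.218 in keratinocytes and 0.165 and 0.114 in thymocytes, in the same order.

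The fraction of called contacts was also close to that of the locus. A contact counted as called in a cell type when its deposited q-value was under 0.05 in each of the 2 libraries. In keratinocytes 72 of 3456 window contacts (2.08%) were called, against 1.99% of all contacts, and in thymocytes 78 of 1999 (3.90%) against 4.03%. Of the 1545 contacts, 33 were keratinocyte-specific (2.14%, against 1.45% in the locus), 46 thymocyte-specific (2.98%, against 3.19%) and 11 common to both (0.712%, against 0.581%). Both keratinocyte Z scores lay above both thymocyte Z scores in 341 window contacts (22.1%, against 21.1%) and below them in 265 (17.2%, against 19.1%).

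Near the window, the difference between the cell types in mean Z score depended on the side on which the partner lay. This split was chosen after the values were seen. The first topologically associating domain (TAD1), a stretch whose fragments meet each other more often than those beyond its border, runs from the broadly expressed genes before the window (Rps27, Ints3, Npr1, Snapin) to the S100 genes after it (S100a3 to S100a9). Differences in mean Z score were larger inside the window (0.92) and with a later domain, TAD3 (-0.94), both given below. With partners after the window, the mean Z score over 193 contacts was 1.84 and 2.05 in keratinocytes and 1.34 and 1.29 in thymocytes. Both keratinocyte libraries lay above both thymocyte libraries, by 0.63 ± 0.14 (SD of keratinocytes, n = 2) and ± 0.03 (SD of thymocytes, n = 2), with an exact permutation p of 0.333, the smallest possible. On the log2 scale the same contacts stood at 0.53 and 0.57 in keratinocytes and at 0.20 and 0.33 in thymocytes.

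With partners before the window, the order was the other way round on the mean. The mean Z score over 346 contacts was 0.183 and 0.453 in keratinocytes and 0.521 and 0.854 in thymocytes, a difference of -0.37 with an exact permutation p of 0.333. This order did not hold for the median, which differed by 0.06 with overlapping libraries. On the log2 scale the libraries overlapped too, so the cell types stood apart on the mean Z score alone. The mean after minus the mean before was 1.66 and 1.59 in keratinocytes and 0.815 and 0.433 in thymocytes, and over contacts of at most 250 kb, where the sides can be compared at like distance, 1.73 and 1.65 against 0.917 and 0.712. In each library, then, the window met the S100 side more than distance alone gave, and this asymmetry was larger in both keratinocyte libraries than in both thymocyte libraries (difference 1.00, exact permutation p = 0.333).

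**Figure D1:**
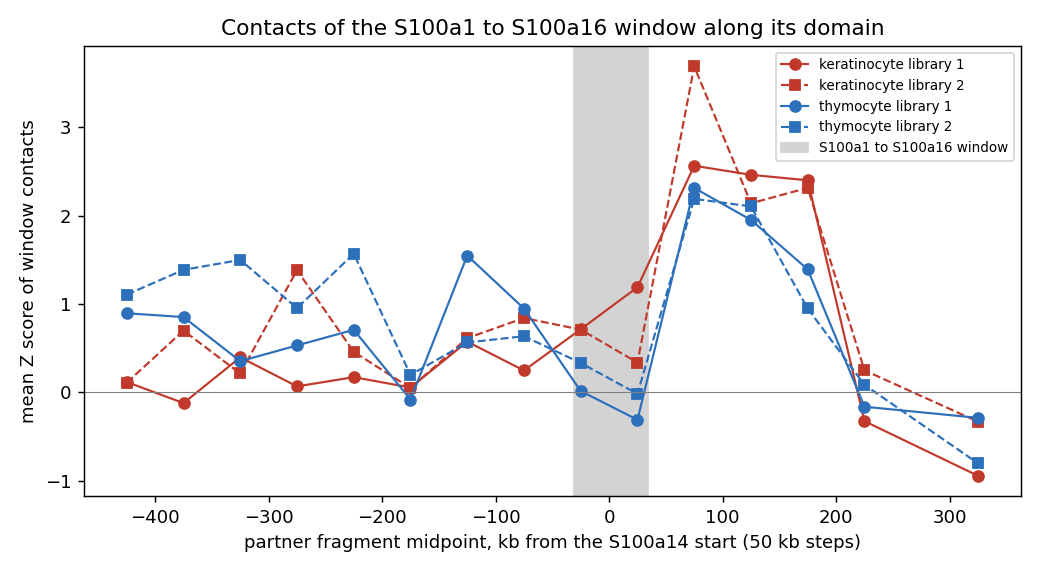
Mean Z score of the window contacts (y axis) by the position of the partner fragment in steps of 50 kb from the start of S100a14 (x axis), with 1 line for each of the 4 libraries and the window in grey. All 4 lines are at their highest from 50 to 100 kb after the start, near S100a3 to S100a6, and none is above 0.249 from 200 kb on.

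The excess on the S100 side ended within a short stretch. From 50 to 100 kb after the start of S100a14, the fragments around S100a3 to S100a6, the mean Z score was 2.57 and 3.69 in keratinocytes and 2.32 and 2.19 in thymocytes. From 150 to 200 kb, around S100a8 and S100a9, which encode the subunits of calprotectin, it was 2.40 and 2.32 in keratinocytes and 1.39 and 0.950 in thymocytes, the widest gap of the steps on this side. From 200 to 250 kb it was -0.327 and 0.249 in keratinocytes and -0.163 and 0.0853 in thymocytes, so the libraries of the cell types overlapped and stood about the level expected for the distance. Before the window, the step at 350 to 400 kb, within Nup210l, had -0.122 and 0.699 in keratinocytes and 0.853 and 1.39 in thymocytes.

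**Figure D2:**
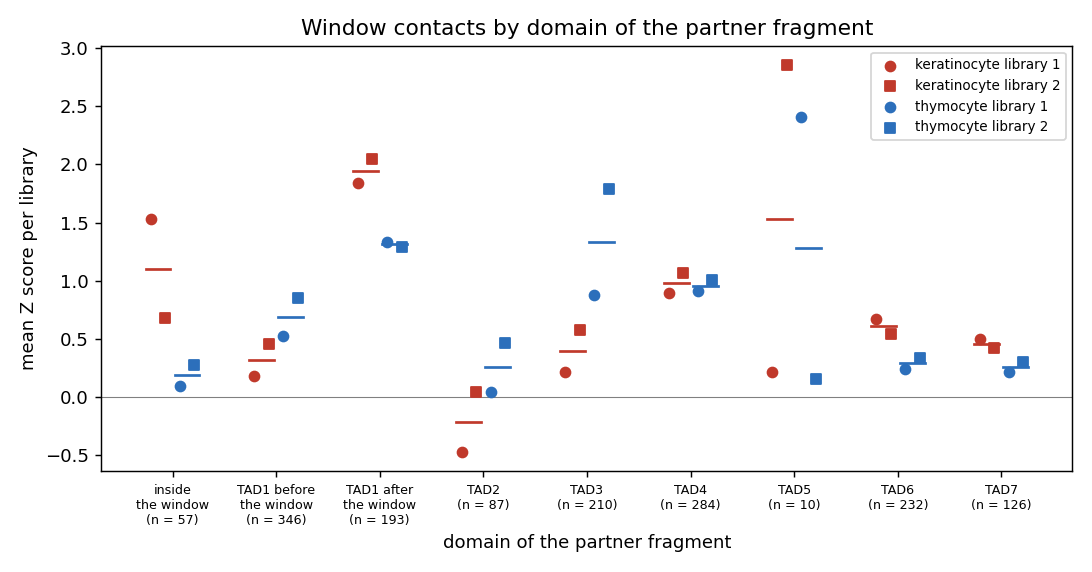
Mean Z score of the window contacts (y axis) by the domain of the partner fragment (x axis), with 1 point per library and a bar at the mean of each cell type. The S100 side of TAD1 has the highest keratinocyte mean (1.84 and 2.05, against 1.34 and 1.29 in thymocytes), and TAD3 shows the reverse order (0.211 and 0.574 against 0.880 and 1.79).

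The calls followed the same sides. In keratinocytes 28 of 292 contacts after the window were called (9.59%, against 2.32% of contacts within TAD1 that do not touch the window) and 0 of 491 before it. In thymocytes 28 of 223 after the window were called (12.6%, against 8.35%). Before it 13 of 388 were called (3.35%), below that 8.35% and near the 4.03% of the whole locus. The share on the S100 side was thus no lower in thymocytes, although the mean Z score was. A call needs both libraries, and single libraries did call contacts before the window in keratinocytes, 15 of 751 in library 1 and 35 of 517 in library 2, beside 53 of 437 and 73 of 548 in the thymocyte libraries. Of the contacts listed in all 4 libraries, the 346 before the window gave 0 keratinocyte-specific, 12 thymocyte-specific and 0 common calls. The 193 after it gave 12, 13 and 11. In the whole locus these shares were 1.45%, 3.19% and 0.581%. The thymocyte calls before the window came in part from fragments of few contacts. Without the 6 fragments that had fewer than 100 contacts in some library, 6 of 340 were called in thymocytes and 0 of 436 in keratinocytes.

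The asymmetry was spread over most of the fragments, which share partners and libraries and are no replicates. The mean Z score was higher after than before the window for 18 and 19 of the 19 fragments with contacts on both sides in the keratinocyte libraries, and for 13 and 12 of them in the thymocyte libraries. After the window, both keratinocyte means exceeded both thymocyte means for 5 fragments and lay below them for 2, with the rest overlapping. The 2 exceptions were FOR_142 and REV_143, at the edge of the window nearest to those partners, where REV_143 had 1.21 and 1.08 in keratinocytes and 2.34 and 1.82 in thymocytes. Before the window, keratinocyte means lay below thymocyte means for 7 of 20 fragments and above them for 2.

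S100a1 (chr3:90314956-90318314, minus strand, mm9) was read by 2 fragments, REV_123 and FOR_125, of which FOR_125 holds its start. Over 176 contacts the mean Z score was 0.530 and 0.873 in keratinocytes and 0.437 and 0.926 in thymocytes. The libraries overlapped fully (difference 0.02, exact permutation p = 1). Calls were 4 of 345 in keratinocytes (1.16%, against 1.99% in the locus) and 8 of 257 in thymocytes (3.11%, against 4.03%). The fragments differed in their calls. REV_123 had 0 of 206 in keratinocytes and 6 of 83 in thymocytes, while FOR_125 had 4 of 139 and 2 of 175, and its contacts with REV_155 in E5 and with REV_158 at the start of S100a3 were called in both cell types. FOR_125 with REV_158 had Z scores of 3.97 and 3.58 in keratinocytes and 5.22 and 15.2 in thymocytes at 80 kb, so the spread within thymocytes exceeded the gap between the cell types.

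S100a13 (chr3:90318357-90328503, plus strand) was read by 6 fragments, 2 of them shared with S100a1 and 1 with S100a14. Its 394 contacts had a mean Z score of 0.485 and 1.01 in keratinocytes and 0.649 and 1.16 in thymocytes, again with overlap (difference -0.16, exact permutation p = 0.667). Called contacts made up 19 of 885 in keratinocytes (2.15%, against 1.99% in the locus) and 32 of 528 in thymocytes (6.06%, against 4.03%). Neighbouring fragments of the gene went different ways. FOR_127, a fragment of 193 bp in its intron, had 0 of 209 called in keratinocytes and 6 of 95 in thymocytes, and of these 6 partners 3 lay in TAD3 and 2 in TAD4, at the epidermal genes. REV_128 had 8 of 40 called in keratinocytes and 4 of 14 in thymocytes, but it is 1 of the fragments of few contacts, with 300 listed in keratinocyte library 1 and 21 in thymocyte library 1.

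The S100a14 gene (chr3:90330778-90332755, plus strand) and E2 were read by the same 3 fragments, so their values are the same. Over 144 contacts the mean Z score was 0.989 and 1.21 in keratinocytes and 0.874 and 0.879 in thymocytes. Both keratinocyte libraries lay higher, by 0.22 (exact permutation p = 0.333), but the sign turned with fragments taken within 10 kb (-0.16) and on the log2 scale (-0.08). Calls were 16 of 332 in keratinocytes (4.82%, against 1.99% in the locus) and 12 of 191 in thymocytes (6.28%, against 4.03%). Nearly all listed contacts came from 1 fragment, REV_132, at the start of the gene, with 124 of the 144. On it the mean Z score was 1.10 and 1.09 in keratinocytes and 0.836 and 0.718 in thymocytes.

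S100a16 (chr3:90341176-90347073, plus strand) and E3 were read by FOR_137 alone, whose probe sequence is not that of mm9 at its listed coordinates. Its 27 contacts had a mean Z score of -0.0783 and 0.728 in keratinocytes and 1.16 and 1.57 in thymocytes, lower in both keratinocyte libraries by 1.04 (exact permutation p = 0.333). This is the thinnest of the members. Thymocyte library 1 listed 53 contacts of this fragment and the other libraries 184 to 276, and with all fragments within 10 kb the difference shrank to -0.30. On the scale of log2 observed over expected frequency it was -0.21 for FOR_137, and the libraries overlapped (exact permutation p = 1). Calls were 1 of 189 in keratinocytes (0.529%, against 1.99% in the locus) and 4 of 38 in thymocytes (10.5%, against 4.03%). The thymocyte partners were near Gatad2b, Lor, Sprr2k and Sprr3.

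**Figure D3:**
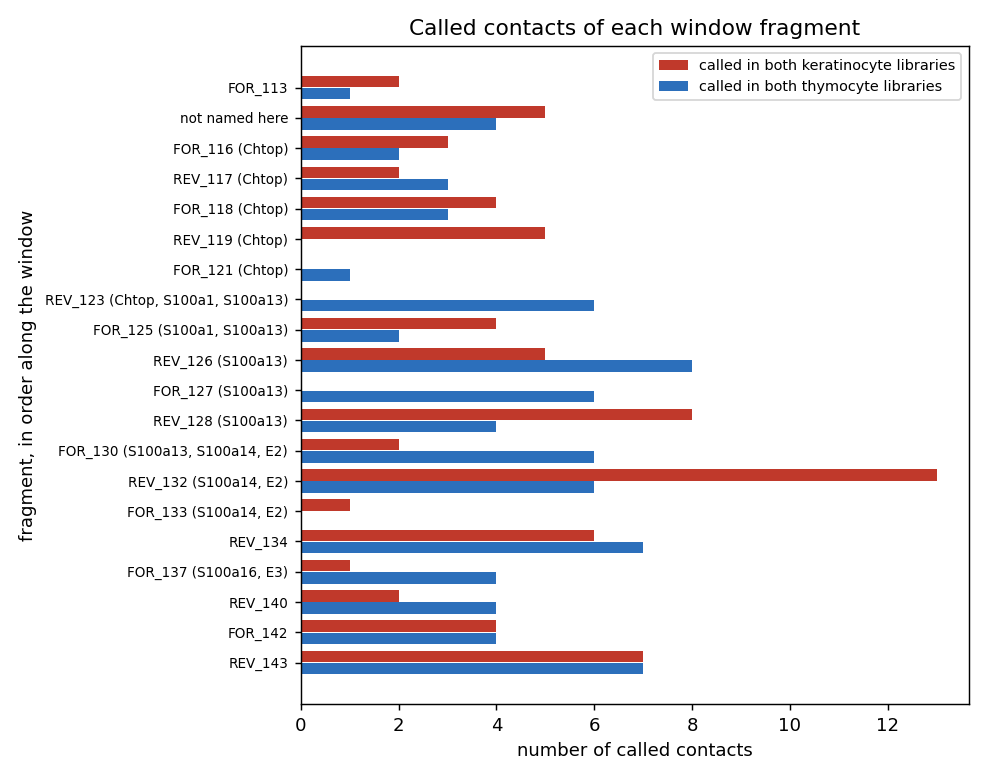
Number of called contacts (x axis) of each of the 20 window fragments in order along the chromosome (y axis), with 1 bar for keratinocytes and 1 for thymocytes, and 1 fragment left unnamed. REV_132 has the most calls in keratinocytes (13) and REV_126 in thymocytes (8).

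REV_132, the S100a14 start with E2, had 13 of 224 contacts called in keratinocytes and 6 of 143 in thymocytes, and no window fragment had more in keratinocytes. By counts, the most uneven of the other fragments were REV_119 in Chtop, FOR_127 and REV_123. REV_119 had 5 of 239 in keratinocytes (2.09%, near the share of the locus) and 0 of 141 in thymocytes. FOR_127 (6.32%) and REV_123 (7.23%) had calls in thymocytes alone. The 13 keratinocyte partners of REV_132 were 1 fragment inside the window, 4 in the S100 genes of TAD1, 4 in TAD4 and 4 in TAD6. Those of TAD4 lay near Lce3e and Lce3f, late cornified envelope genes, and near S100a11 and S100a10, the latter the annexin A2 partner. REV_132 with FOR_1144, 8052 bp from the start of S100a11, had a Z score of 4.01 and 12.9 in keratinocytes and -0.659 and 0.0425 in thymocytes. REV_132 with FOR_1151, 1289 bp from the start of S100a10 and in E11, had 3.25 and 9.93 in keratinocytes and 4.22 and 0.0283 in thymocytes, where library 1 exceeded keratinocyte library 1. The S100a11 contact kept the libraries apart, and the S100a10 contact did not.

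At the far end of the locus, REV_132 met FOR_1412 near Them5 over 3812 kb. The observed frequency was 410 and 281 in the keratinocyte libraries against 46.6 and 37.7 expected, or 8.80 and 7.44 times the expected value, with Z scores of 14.1 and 12.3. Neither thymocyte library listed this contact, so there is no thymocyte value to set against it. The other calls of REV_132 in TAD6 were near E12, in Cgn and 4247 bp from Pogz, with keratinocyte Z scores of 3.14 to 6.12. Of its thymocyte calls, that with FOR_94 in Npr1, a natriuretic peptide receptor gene, lay before the window, with 1.69 and 5.07 in keratinocytes and 7.11 and 5.95 in thymocytes. That with FOR_980, 1470 bp from the start of Crct1, had 0.146 and 7.76 in keratinocytes and 6.49 and 9.88 in thymocytes, and keratinocyte library 2 lay between the thymocyte libraries.

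All 11 common contacts had their partner on the S100 side, over distances of 53 to 171 kb. REV_132 took part in 3 of them, with FOR_154, FOR_159 and FOR_180. For FOR_154 with REV_132 the observed frequency was 2787 and 3067 in keratinocytes against 993 and 513 expected, and 1973 and 1056 in thymocytes against 510 and 576 expected. This is 2.81 and 5.98 times the expected value in keratinocytes and 3.87 and 1.83 times in thymocytes, so the libraries of the cell types overlapped. With FOR_159, over S100a4 and S100a5, the Z scores of REV_132 were 3.66 and 12.5 in keratinocytes and 8.73 and 5.01 in thymocytes, overlapping as well. FOR_154 was the partner with most calls, 5 of its 9 window contacts in keratinocytes and 4 of 10 in thymocytes, of which 2 were common. FOR_154 with REV_126 in S100a13 had 3.65 and 13.6 in keratinocytes and 11.2 and 5.18 in thymocytes.

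The other common contacts named here joined fragments with the S100a7a and S100a8 end of TAD1. REV_117 in Chtop with FOR_176, 2373 bp from the start of S100a8, met over 171 kb with Z scores of 4.64 and 4.42 in keratinocytes and 4.14 and 3.20 in thymocytes, and both keratinocyte values lay above both thymocyte values by a small margin. REV_128 in S100a13 with FOR_180 had 5.31 and 7.16 in keratinocytes and 4.12 and 7.84 in thymocytes, which overlapped. REV_134 with FOR_169, 8443 bp from the start of S100a7a, had 2.92 and 3.97 in keratinocytes and 17.5 and 5.58 in thymocytes, where both thymocyte values were higher and far apart from each other.

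**Figure D4:**
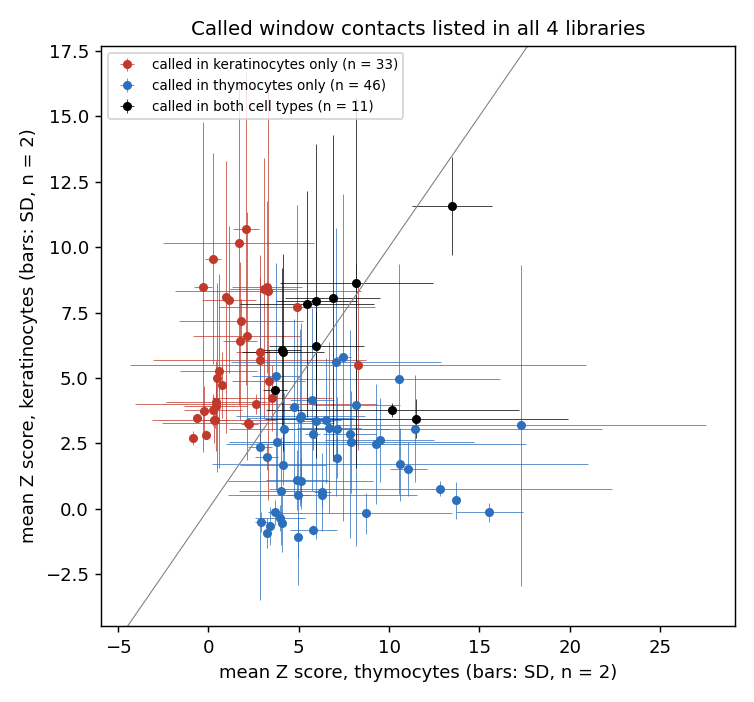
Mean Z score in keratinocytes (y axis) against thymocytes (x axis), with the line of equal values, for the window contacts listed in all 4 libraries and called in keratinocytes (33), in thymocytes (46) or in both (11), with bars of 1 SD over 2 libraries. The bars are long, and many of the contacts called in 1 cell type have bars that reach the level of the other.

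The 13 thymocyte calls before the window reached across to the broadly expressed genes and Nup210l, and 6 of them came from fragments of S100a13 (REV_123, REV_126, REV_128 and FOR_130). FOR_14 with REV_134, over 373 kb, had Z scores of -0.184 and 0.833 in keratinocytes and 13.6 and 13.8 in thymocytes, with an observed frequency of 848 and 623 against 130 and 99.9 expected in thymocytes. FOR_137, over S100a16 and E3, with REV_59, 6798 bp from the start of Gatad2b, a subunit gene of the NuRD complex, had -0.514 and -1.33 in keratinocytes and 3.18 and 3.32 in thymocytes. FOR_118 in Chtop with REV_88 at the start of Ints3, an Integrator subunit gene, had -0.709 and -0.00715 in keratinocytes and 4.93 and 3.00 in thymocytes. In these 3 contacts the cell types did not overlap. FOR_33 with REV_123 did not separate so, with 1.62 and 4.51 in keratinocytes and 4.15 and 18.7 in thymocytes, and keratinocyte library 2 was above thymocyte library 1.

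Beyond TAD1 the window's mean Z score, which is relative to the frequency expected at that distance, was higher in thymocytes with the epidermal genes of TAD3. With TAD6 and TAD7, at the far end of the locus, the mean was higher in keratinocytes. With TAD3, which holds Ivl, the Sprr genes and the Lce1 genes, the mean Z score over 210 contacts was 0.211 and 0.574 in keratinocytes and 0.880 and 1.79 in thymocytes. The difference of -0.94 had an exact permutation p of 0.333, but the median differed by 0.03 with overlapping libraries. With TAD6 the mean over 232 contacts was 0.673 and 0.539 in keratinocytes and 0.243 and 0.335 in thymocytes, and with TAD7, over 126 contacts, 0.496 and 0.421 against 0.215 and 0.296, both with an exact permutation p of 0.333. Before correction for distance and with unscaled libraries the order was the opposite, with a mean log2 observed frequency of 5.97 and 5.47 in keratinocytes against 6.74 and 6.43 in thymocytes for TAD6. For TAD7 it was 6.09 and 5.54 against 6.78 and 6.46. The TAD6 median Z score differed by 0.145 with overlapping libraries (exact permutation p = 0.667). For TAD7 the sign turned in the median (-0.04), and on the log2 scale the difference was -0.01 with overlap. With TAD4, which holds the Lce3 genes, S100a10 and S100a11, the mean was 0.896 and 1.06 in keratinocytes and 0.909 and 1.00 in thymocytes. With TAD2, poor in genes, 87 contacts gave -0.474 and 0.0402 in keratinocytes and 0.0455 and 0.462 in thymocytes, and with TAD5 there were 10 contacts in all.

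Calls outside TAD1 numbered 42 of 2606 in keratinocytes (1.61%, against 1.77% for the rest of TAD1) and 37 of 1327 in thymocytes (2.79%, against 3.68%). By domain they are given beside the share for the rest of TAD1 with the same domain. In keratinocytes they were 5 of 539 with TAD3 (0.928%, against 1.70%) and 15 of 766 with TAD4 (1.96%, against 2.33%). With TAD6 they were 13 of 608 (2.14%, against 1.98%) and with TAD7 8 of 349 (2.29%, against 1.65%). In thymocytes they were 14 of 306 (4.58%, against 4.25%), 10 of 404 (2.48%, against 4.77%), 8 of 307 (2.61%, against 2.49%) and 0 of 145 (0%, against 1.06%). Among contacts listed in all 4 libraries, the 210 with TAD3 gave 0 keratinocyte-specific and 9 thymocyte-specific calls, and the 284 with TAD4 gave 11 and 7. The 232 with TAD6 gave 4 and 3 and the 126 with TAD7 4 and 0, with no common call. In the whole locus 1.45% were keratinocyte-specific and 3.19% thymocyte-specific.

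**Figure D5:**
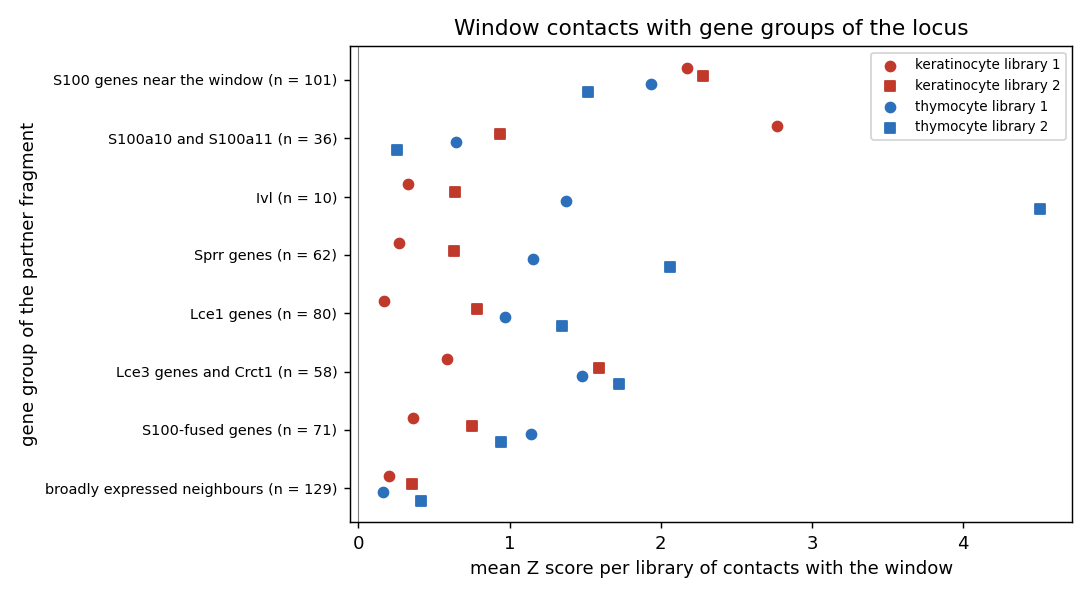
Mean Z score of the window contacts (x axis) with fragments of each gene group (y axis), with 1 point per library and n the number of contacts. The S100a3 to S100a9 group is the highest in keratinocyte library 2 and thymocyte library 1, and the thymocyte points for Ivl and the Sprr genes lie above the keratinocyte points.

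By gene group, the window met S100a3 to S100a9 with a mean Z score of 2.18 and 2.28 in keratinocytes and 1.93 and 1.52 in thymocytes over 101 contacts. The keratinocyte libraries were higher by 0.50 (exact permutation p = 0.333), while calls numbered 19 of 144 (13.2%) in keratinocytes and 19 of 112 (17.0%) in thymocytes. With S100a10 and S100a11, at the other end of the complex, 36 contacts gave 2.77 and 0.938 in keratinocytes and 0.645 and 0.256 in thymocytes, so the keratinocyte libraries were above but differed more from each other than library 2 did from thymocytes. Calls there numbered 4 of 81 (4.94%) and 2 of 56 (3.57%). Of all contacts of the locus 1.99% were called in keratinocytes and 4.03% in thymocytes.

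For the Sprr, Lce1 and Ivl groups the mean was higher in thymocytes, while the counts of single contacts were not all of that order. With the Sprr genes, which encode small proline-rich precursors of that envelope, 62 contacts gave 0.267 and 0.633 in keratinocytes and 1.15 and 2.06 in thymocytes. Of the Sprr contacts 2 of 130 (1.54%) and 5 of 88 (5.68%) were called. With the Lce1 genes 80 contacts gave 0.168 and 0.785 in keratinocytes and 0.970 and 1.35 in thymocytes, with 3 of 204 (1.47%) and 4 of 114 (3.51%) called. With Ivl, the involucrin gene, 10 contacts gave 0.330 and 0.641 in keratinocytes and 1.37 and 4.51 in thymocytes, and the 1 called contact was in keratinocytes. In each of these groups both thymocyte libraries were above both keratinocyte libraries, with exact permutation p = 0.333. Both keratinocyte Z scores lay above both thymocyte Z scores in 11 Sprr contacts, 19 Lce1 contacts and 0 Ivl contacts, and below them in 10, 13 and 2. Lce3 with Crct1 overlapped, at 0.585 and 1.59 in keratinocytes and 1.48 and 1.72 in thymocytes, and 16 of its 58 contacts lay above and 9 below. With the S100-fused genes (the filaggrin family) 71 contacts gave 0.364 and 0.750 in keratinocytes and 1.14 and 0.946 in thymocytes, with 16 above and 18 below. With the broadly expressed neighbours 129 contacts gave 0.203 and 0.355 in keratinocytes and 0.162 and 0.412 in thymocytes, which overlapped, and Lor had no contact listed in all 4 libraries.

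The 3 single contacts with the epidermal genes given next were chosen for their large difference, and their part in the thymocyte means was not tested. FOR_127 in S100a13 with REV_896 at Lce1a2, over 2151 kb, had Z scores of -0.389 and 0.135 in keratinocytes and 14.3 and 16.9 in thymocytes, at 7.05 and 8.55 times the expected frequency in thymocytes. The frequency behind the second value was 106 against 12.4 expected, and the expected value in keratinocytes was 54.2 and 35.5. FOR_127 with REV_797, 1665 bp from the start of Sprr2g, had 0.788 and 2.25 in keratinocytes and 10.3 and 11.8 in thymocytes. FOR_137 with REV_820, 5137 bp from the start of Sprr3, had -1.14 and 7.52 in keratinocytes and 10.1 and 24.5 in thymocytes, with 90.7 and 118 observed in thymocytes against 17.0 and 10.9 expected. All 3 lie at distances where the expected frequency is low.

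The keratinocyte calls at long range given next were chosen for a high keratinocyte Z score or a large difference. Their thymocyte values therefore do not describe the other keratinocyte calls. FOR_118 in Chtop with REV_1691, 420 bp from the start of Setdb1, a histone methyltransferase gene, had Z scores of 13.7 and 17.8 in keratinocytes over 4851 kb, was not listed in thymocyte library 1 and had 0.315 in library 2. REV_143 with FOR_1653 in Sema6c had 12.4 and 6.73 in keratinocytes and 0.558 and -0.0812 in thymocytes. REV_126 in S100a13 with FOR_1052, 24147 bp from the start of Flg, the filaggrin gene, had 5.78 and 14.5 in keratinocytes and 4.63 and -1.30 in thymocytes. In the second and the third, each keratinocyte value lay above each thymocyte value, in the third by little.

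E2 and E3 were taken by the study as a cluster, and the partner genes counted here are those it chose on these keratinocyte libraries, so the keratinocyte count is not independent evidence of a direction. All 10 fragments within 10 kb of E2 or E3 are in the window. Their contacts with any fragment were called in 42 of 1254 in keratinocytes (3.35%) and 47 of 776 in thymocytes (6.06%). With fragments within 10 kb of a partner gene's start, 20 of 175 distinct contacts were called in keratinocytes (11.4%, against 1.99% in the locus) and 10 of 107 in thymocytes (9.35%, against 4.03%), so the counts differ more than the shares. With 5 kb in place of 10 kb there were 14 of 104 and 6 of 59, and with a q-value under 0.01 there were 13 (7.43%) and 8 (7.48%). The thymocyte calls fell largely among the S100 genes.

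Counts by gene are called of listed contacts, in keratinocytes and then in thymocytes (in the locus 1.99% and 4.03%). S100a3 had 3 of 9 and 5 of 7. S100a5 and S100a6 had 3 of 11 and 3 of 12 each, with the same mean Z scores, so these are not separate counts. S100a9 had 2 of 14 and 1 of 12, with a mean Z score of 2.15 and 2.28 in keratinocytes and 0.729 and 0.504 in thymocytes. S100a10 had 1 of 9 and 1 of 5, with 3.57 and 3.04 against 1.04 and 1.25. S100a11 had 1 of 20 and 1 of 18, with 2.58 and 1.64 against 0.722 and 0.0183. For these 3 genes both keratinocyte libraries lay above both thymocyte libraries. Crct1 had 2 of 25 and 1 of 11, and Sprr3 1 of 3 and 1 of 2. Some genes had calls in keratinocytes alone. Pogz, which encodes a chromatin protein, had 2 of 21 and 0 of 8, and Them5 had 2 of 5 and 0 of 1. Ivl had 1 of 12 and 0 of 6, Lce3d 1 of 10 and 0 of 7, and Tuft1 1 of 5 and 0 of 1. Bnipl had 1 of 8 and 0 of 4, and Pi4kb, a lipid kinase gene, 1 of 28 and 0 of 17. Among the called contacts of these last genes, FOR_125 with REV_1415 near Them5 was listed in both thymocyte libraries (-0.736 and -0.932, against 2.91 and 2.53 in keratinocytes), and the others were not, so that a thymocyte call was not possible for them. Among the other enhancers, the cluster was called in keratinocytes and thymocytes with E4 (5 of 13 and 5 of 12) and E5 (6 of 9 and 6 of 9). It was also called in both with E6 (3 of 9 and 5 of 8), E7 (3 of 18 and 3 of 18) and E11 (1 of 14 and 1 of 7). With E12 (1 of 5 and 0 of 1) and E14 (1 of 28 and 0 of 17) calls were in keratinocytes alone. E6 had the number of calls and the mean Z scores of S100a3, so the gene and enhancer counts overlap.

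Between the window's own fragments, 57 contacts had a value in every library. The mean Z score of these was 1.53 and 0.681 in keratinocytes and 0.0974 and 0.271 in thymocytes, higher in both keratinocyte libraries by 0.92 (exact permutation p = 0.333), and the median differed by 0.64 the same way. Keratinocyte library 1 carried much of the size. Its high contacts included those of FOR_121 and REV_117 in Chtop and of FOR_125 at the start of S100a1. FOR_121 with REV_132 had Z scores of 5.78 and 0.137 in keratinocytes and -0.495 and -0.238 in thymocytes. FOR_125 with REV_132, joining the starts of S100a1 and S100a14, had 4.77 and -0.0408 in keratinocytes and -0.312 and -0.444 in thymocytes. The 2 contacts called in both keratinocyte libraries were those of FOR_142, beyond S100a16, with REV_132 (3.37 and 3.11 in keratinocytes, 1.92 and 2.62 in thymocytes) and with REV_128 (2.74 and 3.66 in keratinocytes). With unscaled libraries, the frequency before correction for distance gave no such order: the mean log2 observed frequency was 11.69 and 10.79 in keratinocytes and 11.26 and 11.50 in thymocytes. With the libraries scaled to the same total it was higher in keratinocytes by 0.94 (exact permutation p = 0.333).

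No single contact passed the test across contacts. With limma on the Z scores of all 23395 contacts, 0 of the 1545 window contacts and 0 in the whole locus (0% called in either direction) had a Benjamini-Hochberg adjusted p under 0.05, and the smallest adjusted p in the window was 0.767. At an unadjusted p under 0.05 there were 86 (5.57%, against 5.11% in the locus), 49 higher in keratinocytes and 37 in thymocytes.

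Against its neighbours, the window stood apart in 1 of 3 comparisons by the order of the libraries. Its mean Z score minus that of the fragments of Ints3, Npr1, Ilf2 and Snapin, just before it, was 0.179 and -0.113 in keratinocytes and -0.335 and -0.241 in thymocytes, a gap of 0.32 (exact permutation p = 0.333). Against S100a2 to S100a6 with E4 to E7 the gap was 0.21 and against S100a7a to S100a9 0.11, each with overlap and an exact permutation p of 0.667. By the correlation of the cell type difference in Z score over shared partners, the fragments most like the window of 450 compared were REV_1411 near Them5 (r = 0.525 over 36 partners), REV_80 at the start of Slc27a3 (0.457 over 97) and FOR_29 near Rps27 (0.439 over 43). The points share the libraries and the partner fragments, and none of the S100 genes was among these 3.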

How the data were processed

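The deposited signal was a corrected 5C frequency per contact, with the one expected for its distance. The authors aligned reads to the probes (Bowtie and mm9 per the labels), removed poor probes and outlying single contacts, corrected each probe's coverage by Loess, and derived the expected value and its standard deviation by a Loess fit on distance. The deposited score was the Z score. The deposited p-value and q-value came from a Weibull fit in each library. Other deposited values were coordinates and distances. Read depth is unknown, so no counting error is given.

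Window members, gene lists and the order of results were chosen with earlier results of these data known. Genes named were the window's members, the study's partner genes and the contacts with the largest mean Z scores among the called, other than those of 1 probe. Groups came from the sample titles. Domain borders, enhancers and partner genes followed the study's definitions, and the keratinocyte borders served both cell types. Library means were compared by two-sided exact permutation tests, and single contacts by limma 3.58.1 in R 4.3.3 (lmFit, eBayes with trend), tested on simulated data. Other steps used Python 3.11.15. Alternatives were other q-value thresholds, distances, scales, summaries, fragment assignments, a replicate block and leaving out each library. Probes were set against the mm9 sequence, and 19 of the 20 window probes were equal to it, all but FOR_137. S100a2 has no gene model in the annotation used here. Separately, the sequence and single contacts of 1 other window probe are not reported here.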

Additional observations from a re-analysis of the deposited data

How the results depend on the processing

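Of 165 alternatives, 138 moved a result by less than the spread between libraries (a count by under 1.5 times; on another scale, left the libraries apart or overlapping as before), and 27 moved it further, changed that, or turned a difference that had kept the libraries apart. The sign changed in 31 of the 165, and 20 of these are among the 138. With each library left out in turn, the keratinocytes minus thymocytes difference in mean Z score ranged from -0.176 to 0.0684 over all window contacts. It ranged from -0.421 to 0.109 for S100a13 and from -1.07 to 1.57 for TAD5. With the median in place of the mean, the difference over all window contacts (keratinocytes minus thymocytes) was 0.14 in Z score, where the libraries no longer overlapped, and 0.10 in log2 observed over expected, TAD3 gave 0.0284, TAD4 0.285, TAD6 0.145, TAD7 -0.0399 and the contacts before the window in TAD1 0.0594 (-0.0670 on the log2 scale). With contacts listed in both libraries of 1 cell type in place of all 4, the differences over all window contacts were -0.30 in Z score and -0.15 on the log2 scale. With fragments within 10 kb, S100a14 and E2 gave -0.16 and S100a16 and E3 -0.30, and on the log2 scale -0.0806 and -0.212, the last with overlapping libraries. At a q-value under 0.01, 45 window contacts were called in keratinocytes, and 13 of the E2 and E3 cluster with the partner genes. At 5 kb that cluster had 6 in thymocytes. Leaving out 1 library, with calls from the remaining library, gave 350 to 477 in keratinocytes and 314 to 556 in thymocytes. The mean log2 observed frequency inside the window differed by -0.14, by 0.94 with libraries scaled to the same total and by 0.44 over expected. For these, the cause was not tested. The limma test called 0 window contacts under each alternative. With the replicate block it called 0, with 92 at an unadjusted p under 0.05. The numbers were not shown to pair the libraries, since deviations of same-numbered libraries correlated at -0.0937. The median, log2 and few-contact alternatives for the sides of the window were chosen after seeing the data. Contacts unlisted in a library limit all comparisons.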
